A study of Homo sapiens with 9 samples.

Results

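The inter-alpha-trypsin inhibitor family was described here in Huh-7 cells, a human hepatoma line, by the RNA of ITIH1, ITIH2, ITIH3, ITIH4, ITIH5 and AMBP. These 6 genes were chosen by gene name out of the 58735 genes counted, and they were put forward with results of these libraries known. Poly(A) RNA was sequenced from 9 libraries, 3 from Huh-7 control cells (labelled WT), 3 from Ako-3 cells, in which APOB was knocked out, and 3 from Mko-3 cells, in which MTTP was knocked out. APOB codes for the structural protein of very low density lipoproteins and MTTP for the microsomal protein that loads lipid onto it. Near-confluent cells of each group were kept overnight in medium without serum before RNA was isolated, which the control cells share with both knockouts. Each knockout is 1 clone, selected by limiting dilution in the case of Ako-3, so a difference between a clone and the control cells and an effect of the knocked-out gene cannot be told apart. The replicates are labelled biological, and whether they come from separate thaws or passages is not stated, so that the p values given measure the spread between libraries of the same cells. The labels give no sequencing batch, and a batch that followed the groups cannot be told apart from them.

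Inter-alpha-trypsin inhibitors are plasma proteins made mainly by hepatocytes. AMBP codes for a precursor that is cleaved into alpha-1-microglobulin, a heme-binding lipocalin, and bikunin, a Kunitz-type serine protease inhibitor that carries a chondroitin sulfate chain. The ITIH genes code for heavy chains, and those of ITIH1, ITIH2 and ITIH3 are joined to this chain through an ester bond at the C-terminal aspartate left when the chain's own propeptide is removed. In the matrix the protein TSG-6, coded by TNFAIP6, moves heavy chains from bikunin to hyaluronan. The ITIH4 product has no such junction with bikunin and circulates alone, and ITIH5 is known mostly from tissues outside the liver.

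The family lies at 3 loci in the coordinates of the files, which follow hg38. ITIH1 (ENSG00000055957, chromosome 3, 52777592 to 52792068, plus strand, 22 exons in the GENCODE 44 canonical transcript), ITIH3 (ENSG00000162267, 52794768 to 52809009, plus strand, 22 exons) and ITIH4 (ENSG00000055955, 52812975 to 52831479, minus strand, 24 exons) follow each other on chromosome 3, with 2.699 kb between ITIH1 and ITIH3 and 3.965 kb between ITIH3 and ITIH4. ITIH2 (ENSG00000151655, 7703269 to 7749520, plus strand, 21 exons) and ITIH5 (ENSG00000123243, 7559270 to 7666998, minus strand, 14 exons) lie on chromosome 10, turned away from each other with 36.3 kb between them. AMBP (ENSG00000106927, 114060127 to 114078472, minus strand, 10 exons) stands alone on chromosome 9. ITIH4 overlaps the gene ENSG00000243696 on its own strand and ITIH4-AS1 on the other, and the library kit as described does not mark the strand. How reads in the shared bases were assigned is not stated, so the few counts of ITIH4 may be too low or too high. ENSG00000243696 and ITIH4-AS1 had 39 and 1 counts over the 9 libraries.

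The bases before the transcription start are shown for 1 member that was higher in Ako-3 cells (ITIH5), for the most abundant member (AMBP) and for ITIH3, which has a single listed start at the edge of its gene. The sequences are from RefSeq starts on GRCh38.p14, read in the direction of the gene, and run from 250 to 33 bases before the start, so that none lies within the GENCODE 44 gene, although the gene body of AMBP in the files reaches further out, to 114078472. ITIH5 is chr10:7666999-7667216, minus strand, AMBP is chr9:114078333-114078550, minus strand, and ITIH3 is chr3:52794546-52794763, plus strand. Capitals mark matches, on either strand, to GGGCGG (the Sp1 box) or to CCAAT (the CCAAT box).
ITIH5: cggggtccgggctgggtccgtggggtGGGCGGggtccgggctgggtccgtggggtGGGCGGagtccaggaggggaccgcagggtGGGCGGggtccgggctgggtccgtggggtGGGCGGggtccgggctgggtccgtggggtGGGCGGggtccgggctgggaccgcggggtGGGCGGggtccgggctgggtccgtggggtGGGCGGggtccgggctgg
AMBP: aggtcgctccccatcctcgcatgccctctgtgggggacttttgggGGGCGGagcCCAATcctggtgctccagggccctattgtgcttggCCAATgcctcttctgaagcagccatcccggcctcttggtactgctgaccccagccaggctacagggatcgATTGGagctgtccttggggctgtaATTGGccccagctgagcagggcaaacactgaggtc
ITIH3: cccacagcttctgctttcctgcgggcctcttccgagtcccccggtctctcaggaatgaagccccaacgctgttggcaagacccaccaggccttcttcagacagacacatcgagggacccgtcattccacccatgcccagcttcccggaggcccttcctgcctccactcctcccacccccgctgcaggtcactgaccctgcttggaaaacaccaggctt

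The ITIH5 window is a run of near-repeats with 82.6% G and C, against a median of 57.8% over all 35116 windows of this length, and it holds GGGCGG 7 times. The AMBP window, with 61.9% G and C, holds GGGCGG 1 time and CCAAT 4 times, and the ITIH3 window, with 62.4%, holds neither. GGGCGG was found in 38.6% and CCAAT in 29.6% of all windows. Among the letters searched for liver-enriched factors, none of these 3 windows held GTTAAT for HNF1 (in 5.70% of all windows) or TGTTTAC for FOXA (2.58%). Nor did they hold CAAAGTCC for HNF4 (0.908%) or TTGCNNAA for C/EBP (8.19%). TTCNNNGAA for STAT proteins (5.94%), which was searched besides, was absent as well. The 3 starts listed for ITIH1 lie inside its gene body and their windows are not shown, nor is that of ITIH4. ITIH2 has no entry. A match of letters is a description of the window and not evidence of a bound factor.

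Library depth, as the sum of counts over genes, was 14638727 to 20179760, and mitochondrial genes took 5.52% to 6.17% of them in control, 7.06% to 7.40% in Ako-3 and 5.75% to 5.82% in Mko-3 libraries. As a check of the labels, APOB was lower in Ako-3 cells, at a mean of 1316 CPM (counts normalized to library size) against 3360 in the controls, and MTTP was lower in Mko-3 cells, at 87.1 CPM against 635. The 10 hepatocyte markers were present in each library, and their FPKM (fragments normalized to gene length and library size) were summed. The sum was higher in Ako-3 (7202 to 7544) than in control (6000 to 6275) and Mko-3 libraries (5784 to 6023). ALB and AFP make up the largest parts of it, and it hides markers that moved apart. Against control cells, 9 markers had log2 fold changes above 0 in Ako-3 cells and 1, FGB, below. In Mko-3 cells 5 lay above 0 and 5 below. Mean FPKM of ALB was 2547 in control, 2595 in Ako-3 and 1833 in Mko-3 cells. That of AFP was 1050, 1168 and 1840. Of markers of other cells, the 7 of immune cells summed to 2.79 to 3.72 FPKM in control, 5.43 to 5.89 in Ako-3 and 3.405 to 4.597 in Mko-3 libraries, most of it CD14, with CD163 and MS4A1 at 0 counts. The 7 of endothelial cells summed to 9.93 to 11.3, 13.5 to 14.7 and 7.34 to 8.02 FPKM in the same order, most of it PECAM1, with KDR and CLEC4G at 0 counts. The 7 of stellate cells and fibroblasts summed to 1.72 to 2.01, 1.31 to 1.81 and 1.04 to 1.19 FPKM, with DCN at 2 counts or fewer in each library. The part of these markers in the differences of the family was not tested, and in bulk RNA fewer cells making a gene and less RNA per cell cannot be told apart.

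The family's RNA in Huh-7 cells was almost wholly AMBP and ITIH2. On the FPKM scale, which corrects for gene length, the control cells had 657 ± 54.6 (SD, n = 3) of AMBP and 93.5 ± 15.3 of ITIH2. AMBP was the gene with the 32nd highest mean FPKM in control cells, and ITIH2 was at rank 327. The order below them was ITIH5 at 1.13 ± 0.16, ITIH1 at 0.504 ± 0.015, ITIH3 at 0.313 ± 0.050 and ITIH4 at 0.0174 ± 0.0206. Members next to each other in this order did not overlap in the libraries of any group. The same order of mean FPKM was found in Ako-3 and Mko-3 cells, and with the length of the canonical transcript in place of the length in the files. Of the heavy chain genes whose products are joined to bikunin, ITIH1 and ITIH3 were each below 1 FPKM in control cells, and ITIH2 held nearly all of the RNA.

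**Figure D1:**
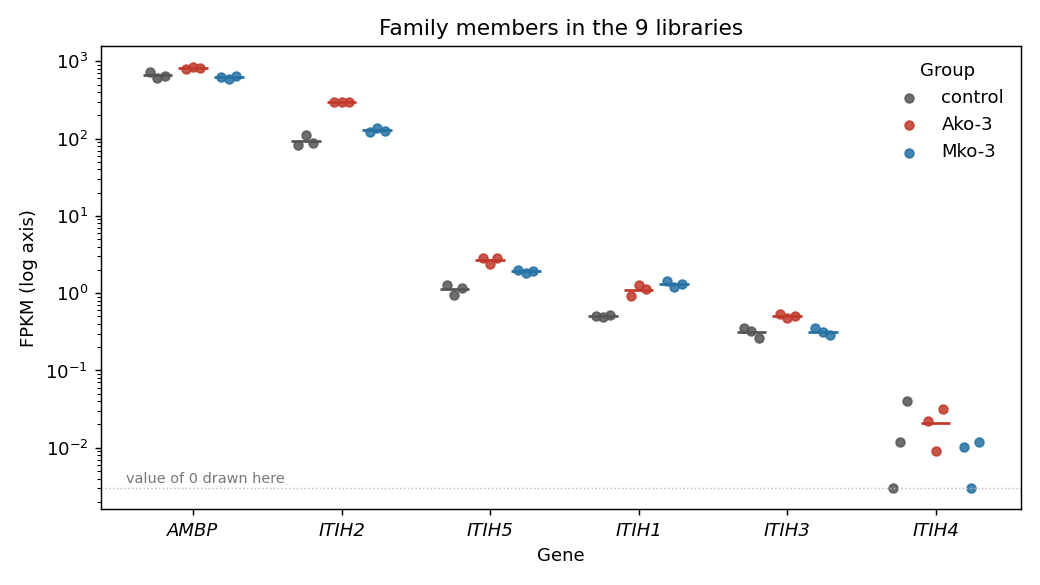
Deposited FPKM of the 6 family members (log axis) in the 9 libraries, with a point per library and a bar at the group mean. AMBP lies near 657 FPKM in control cells and ITIH2 near 93.5, the other members lie below 3 FPKM in each library, and values of 0 for ITIH4 are drawn at the dotted line with no group mean.

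In Ako-3 cells 3 of the 5 members that could be tested, ITIH1, ITIH2 and ITIH5, were higher than in control cells at the thresholds of the study, a log2 fold change of 1 or more in size with an adjusted p of 0.05 or less. Over all 15787 genes tested in this comparison 8.52% were called (3.52% up and 5.0% down). Members had a median log2 fold change of 1.14, all tested genes one of -0.01. The family was put forward with this comparison known, so the counts and values of its members are given as a description, without p values, and nothing is read from them. ITIH4 did not pass the filter on low counts.

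ITIH2, the main heavy chain gene of these cells, was counted 5212, 5721 and 5382 times in the control libraries, 16710, 19909 and 17370 times in the Ako-3 libraries and 7242, 8122 and 6522 times in the Mko-3 libraries. After normalization to library size these were 280, 378 and 299 CPM in the control libraries, 1022, 1015 and 1007 CPM in Ako-3 cells and 411, 465 and 426 CPM in Mko-3 cells. The 3 groups did not overlap, the Ako-3 libraries were the closest to each other, and control replicate 2 stood above the other control libraries. The share of all genes whose groups do not overlap is not given here. By adjusted p alone 49.9% of all genes tested passed in Ako-3 against control cells, so a lack of overlap is no mark of the members. Ako-3 cells differed from control cells by a log2 fold change of 1.66 (SE 0.09), or 3.16-fold, and by 1.57 to 1.80 when any 1 library was left out. ITIH2 thereby moved from rank 327 to rank 85 by mean FPKM, and it was at rank 240 in Mko-3 cells. The sum of the hepatocyte markers was also the highest in Ako-3 libraries, as given above, while AFP and FGB on their own had their highest mean in Mko-3 cells. The part of these markers in the difference of ITIH2 was not tested.

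ITIH5, the heavy chain gene that is known mostly from other tissues, had 352, 213 and 307 counts in the control libraries, 697, 704 and 728 in the Ako-3 libraries and 516, 469 and 438 in the Mko-3 libraries. Its CPM were 18.9, 14.1 and 17.1 in the controls, 42.6, 35.9 and 42.2 in Ako-3 cells and 29.3, 26.8 and 28.6 in Mko-3 cells. As for ITIH2, the Ako-3 libraries were the highest, the Mko-3 libraries lay between, and the groups did not overlap. In Ako-3 against control cells the log2 fold change was 1.25 (SE 0.11), a 2.38-fold difference. Control replicate 2, the highest control library for ITIH2, was the lowest for ITIH5.

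ITIH1, a heavy chain gene of the chromosome 3 cluster, was at 43, 34 and 43 counts in the control libraries, 70, 115 and 90 in the Ako-3 libraries and 116, 97 and 93 in the Mko-3 libraries. These were 2.31, 2.25 and 2.39 CPM in the controls, 4.28, 5.86 and 5.22 CPM in Ako-3 cells and 6.58, 5.55 and 6.08 CPM in Mko-3 cells. Both knockouts lay above the control cells and overlapped each other. The log2 fold change in Ako-3 cells was 1.14 (SE 0.20), close to the threshold, and lay between 1.03 and 1.25 when any 1 library was left out.

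AMBP, the bikunin precursor gene, had 27438, 18923 and 24092 counts in control, 26748, 34280 and 29341 in Ako-3 and 22550, 21538 and 20068 in Mko-3 libraries. Its CPM were 1476, 1251 and 1339 in the controls, 1636, 1748 and 1701 in Ako-3 cells and 1279, 1232 and 1311 in Mko-3 cells. The Ako-3 libraries lay above the others, and the control and Mko-3 libraries overlapped. The log2 fold change in Ako-3 cells was 0.31 (SE 0.06), which is below the threshold.

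ITIH3, the second heavy chain gene of the cluster, had 40, 29 and 28 counts in control, 52, 56 and 53 in Ako-3 and 37, 33 and 26 in Mko-3 libraries, or 1.88 ± 0.30 CPM (SD, n = 3 in each group), 3.04 ± 0.17 CPM and 1.89 ± 0.20 CPM. The Ako-3 libraries were the highest, and the log2 fold change of 0.68 (SE 0.24) against control cells did not reach the threshold. ITIH4 had 0, 1 and 4 counts in control, 2, 1 and 3 in Ako-3 and 1, 0 and 1 in Mko-3 libraries, too few for a test. The part of its overlap with ENSG00000243696 in these low counts was not tested. ITIH6, a further heavy chain gene, had 0 counts in each of the 9 libraries.

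**Figure D2:**
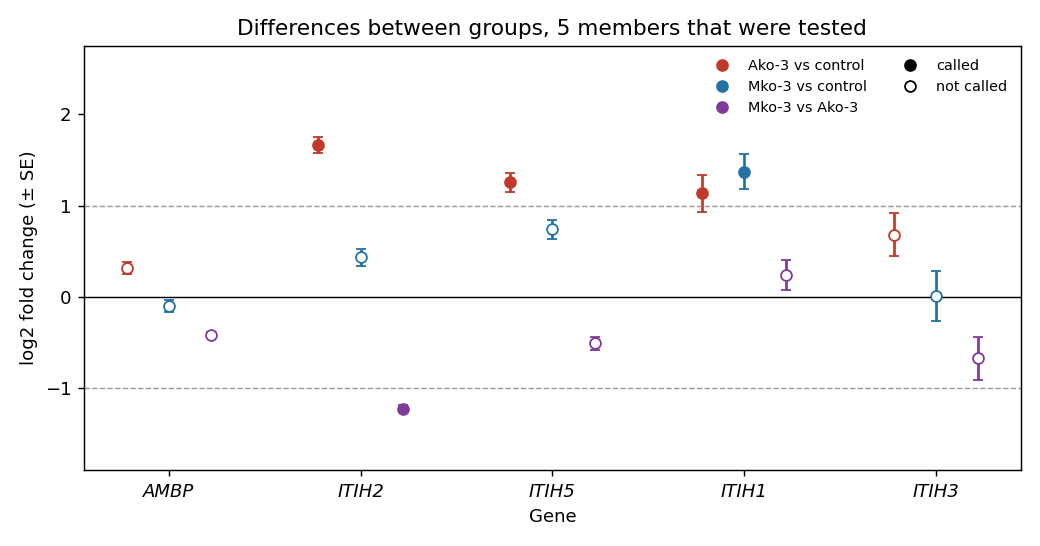
Log2 fold changes of the 5 tested members in the 3 comparisons, with bars of 1 standard error, filled points for called genes and dashed lines at the fold threshold. ITIH2 lies at 1.66 in Ako-3 against control cells, at 0.43 in Mko-3 against control cells and at -1.23 in Mko-3 against Ako-3 cells, while ITIH1 passes the threshold in both comparisons with control cells.

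In Mko-3 cells ITIH1 was the member that rose past the fold threshold. Of 5 members tested it was called, against a background of 11.0% called among 15745 genes tested in this comparison, 3.82% up and 7.22% down. The members had a median log2 fold change of 0.43, all tested genes one of -0.01. The log2 fold change of ITIH1 was 1.37 (SE 0.19), a 2.59-fold difference. The same control libraries serve this comparison and that of Ako-3 cells, so the values of the 2 comparisons are not independent, and those of the members are given without p values here too.

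ITIH5 and ITIH2 had smaller differences in the same direction in Mko-3 cells, with no overlap between the groups and below the fold threshold. By adjusted p alone 54.0% of all genes tested passed in this comparison. The log2 fold change of ITIH5 was 0.74 (SE 0.11). That of ITIH2 was 0.43 (SE 0.10) and was 0.58 when control replicate 2 was left out. For AMBP it was -0.10 (SE 0.06). For ITIH3 it was 0.01 (SE 0.27), and this value changed sign when single libraries were left out.

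Set against each other, the knockouts differed in ITIH2, which fell by 1.23 on the log2 scale (SE 0.04) from Ako-3 to Mko-3 cells, from 1015 ± 7.47 CPM (SD, n = 3) to 434 ± 27.7 CPM. It was the called member of 5 tested. In this comparison 5.73% of 15528 genes were called, 2.26% up and 3.47% down, and the median was -0.51 for the members and 0.00 for all tested genes. The Ako-3 libraries are those whose values were known when the family was put forward, so the members' values here are a description too.

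The other members differed less between the knockouts and stayed below the fold threshold. AMBP had a log2 fold change of -0.41 (SE 0.03), with the highest Mko-3 library at 1311 CPM and the lowest Ako-3 library at 1636 CPM. ITIH5 had -0.51 (SE 0.08) and ITIH3 -0.67 (SE 0.24). ITIH1 had 0.24 (SE 0.16), with overlapping libraries.

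The balance of heavy chain and bikunin RNA was described as the summed FPKM of ITIH1 to ITIH4 per FPKM of AMBP. This ratio was 0.116, 0.184 and 0.136 in the control libraries, 0.379, 0.353 and 0.360 in the Ako-3 libraries and 0.197, 0.230 and 0.199 in the Mko-3 libraries. The groups did not overlap, with Ako-3 the highest. The ratio in Ako-3 cells was 2.50 times and that in Mko-3 cells 1.44 times that in control cells. ITIH2 carries nearly the whole sum, so the ratio repeats its difference on a scale set by AMBP, and the smallest p that an exact permutation test of 3 libraries against 3 can give is 0.1. With the length of the canonical transcript, an alternative added after seeing the data, the ratios were 0.0971 in control, 0.242 in Ako-3 and 0.140 in Mko-3 cells, and the folds were 2.50 and 1.44 as before. As a share of the summed FPKM of the 6 members, ITIH2 took 12.5% ± 2.63 (SD, n = 3) in control, 26.5% ± 0.73 in Ako-3 and 17.0% ± 1.28 in Mko-3 cells. AMBP took 87.2% ± 2.62, 73.1% ± 0.75 and 82.5% ± 1.26.

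**Figure D3:**
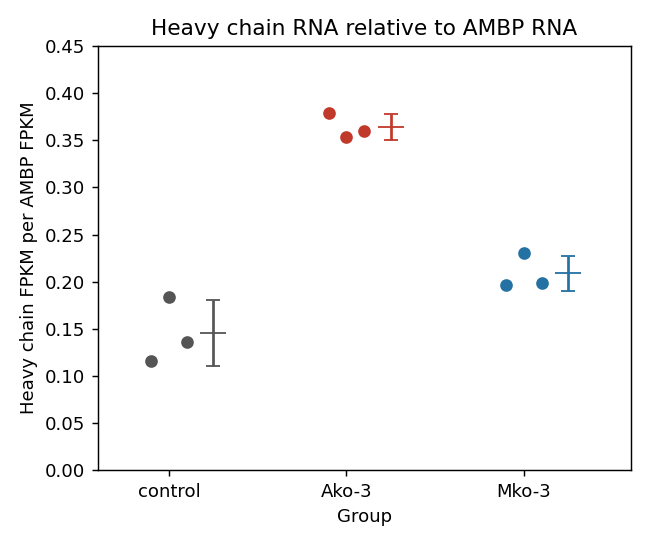
Summed FPKM of ITIH1, ITIH2, ITIH3 and ITIH4 divided by the FPKM of AMBP, with a point per library and the mean with 1 SD beside it, on an axis from 0. The Ako-3 libraries lie between 0.353 and 0.379 and the control libraries between 0.116 and 0.184, with the Mko-3 libraries between 0.197 and 0.230.

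The 4 tested genes close to ITIH2 and ITIH5 were not called in any of the 3 comparisons. Over all genes tested, 8.52%, 11.0% and 5.73% were called in these comparisons, so 4 genes are too few to read anything from. Within 500 kb of ITIH2 the files hold 5 other protein-coding genes, of which SFMBT2 was not tested. KIN, the nearest at 1.44 kb from ITIH2, showed log2 fold changes of 0.23 (Ako-3) and 0.05 (Mko-3). ATP5F1C, TAF3 and GATA3 had -0.11, -0.25 and -0.87 in Ako-3 cells and -0.26, -0.38 and -0.73 in Mko-3 cells. These 4 are also the tested neighbours of ITIH5. Around ITIH1 on chromosome 3, 21 of 26 neighbours were tested and none was called in Ako-3 against control cells. In Mko-3 cells DNAH1, at -1.06, and PHF7, just past the threshold, were called lower and none of the 21 was called higher. Over all genes tested there, 7.22% were called lower and 3.82% higher. Around AMBP 8 neighbours were tested. ORM2, which codes for an acute phase lipocalin, rose by 1.04 on the log2 scale in Ako-3 cells, and by as little as 0.992 with a library left out. AKNA fell in both knockouts, by 1.57 in Ako-3 and 1.67 in Mko-3 cells, and WHRN fell by 1.11 in Mko-3 cells.

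**Figure D4:**
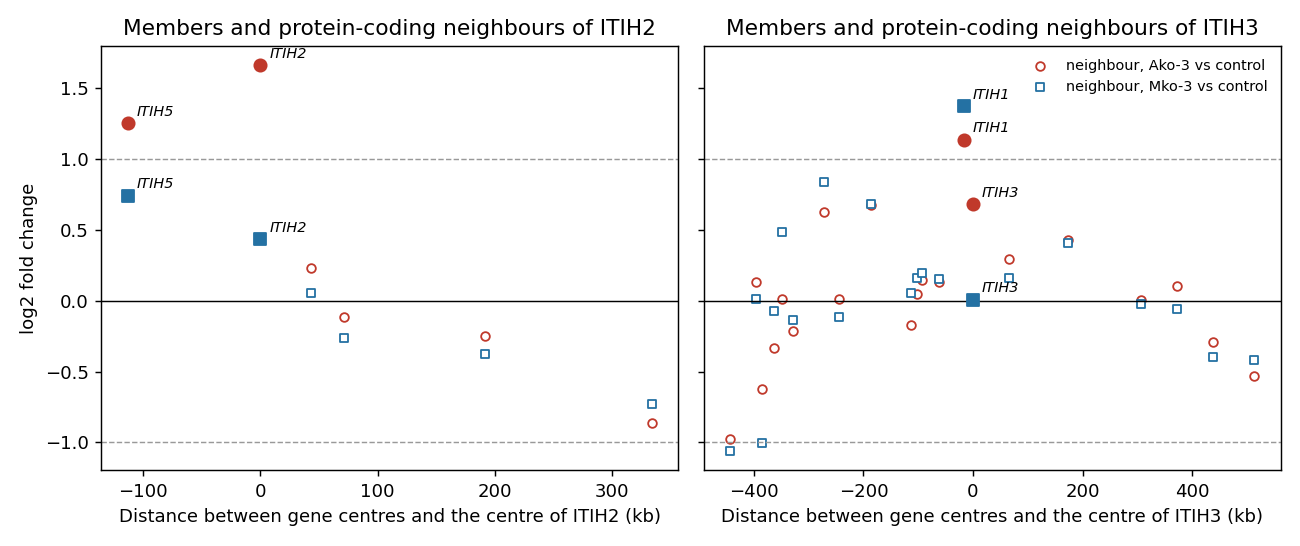
Log2 fold changes of ITIH2 and ITIH5 (left) and of ITIH1 and ITIH3 (right) as filled symbols, and of the tested protein-coding neighbours as open symbols, against the distance between gene centres in kb. Circles are Ako-3 and squares Mko-3 cells against control cells, the dashed lines mark the fold threshold, and the neighbours of ITIH2 lie between -0.87 and 0.23.

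Pairs of members differed in how closely they varied together over the 9 libraries. On log2(CPM + 1), Pearson's r between pairs of the 5 tested members ranged from 0.16 for ITIH1 with AMBP to 0.89 for ITIH2 with ITIH3. These are descriptions over libraries that fall into 3 groups and share their depth and processing. By the same measure the genes most like ITIH2, among 15153 tested in the 3 comparisons, were TMEM97 (0.996), MAGEC2 (0.993) and ST6GAL1 (0.992). TMEM97 codes for the sigma-2 receptor, MAGEC2 for a cancer-testis antigen and ST6GAL1 for a sialyltransferase of the Golgi. Most like AMBP were TREH (0.986), CASC10 and APOE (both 0.978), and most like ITIH5 were ASAH2 (0.993), IL22RA1 (0.984) and ANP32A (0.983). ITIH1 was most like SEM1 and MEA1 (both 0.988), and ITIH3 most like AXIN2 (0.984), MRPS22 (0.961) and SGK1 (0.958).

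The partners of the family were followed in 76 genes on 7 lists, covering hyaluronan synthesis, binding and breakdown, chondroitin sulfate synthesis and sulfation, proprotein convertases and Kunitz inhibitors. In Ako-3 against control cells 54 were tested, 5 rose and 1 fell, or 11.1%, with a median log2 fold change of 0.04. In Mko-3 cells 53 were tested, 6 rose and 3 fell, or 17.0%, with a median of 0.23. Of 53 tested between the knockouts, 5 were higher in Mko-3 cells and 3 lower, or 15.1%, with a median of 0.15. These shares stand beside 8.52%, 11.0% and 5.73% over all genes.

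Of the hyaluronan synthases, HAS3 had 5, 16 and 14 counts in the control libraries, 33, 24 and 19 in the Ako-3 libraries and 33, 27 and 21 in the Mko-3 libraries. It was called in both knockouts, with log2 fold changes of 1.05 (SE 0.42) and 1.21 (SE 0.40). The call rests on few counts. Without control replicate 1 the values were 0.64 and 0.80, not called. In Ako-3 cells the call was also lost without control replicate 3, Ako-3 replicate 1 or Ako-3 replicate 2, and in Mko-3 cells without Mko-3 replicate 1, where the values were 1.16, 0.76, 1.17 and 1.08. With DESeq2 HAS3 was called in neither knockout (adjusted p = 0.13 and 0.060).

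Among the hyaluronan binding proteins, HABP2, a plasma serine protease, rose in both knockouts, from 6.58 CPM in control cells to 22.7 in Ako-3 and 72.5 in Mko-3 cells. Its log2 fold changes were 1.77 (SE 0.12) and 3.44 (SE 0.11), and the difference between the knockouts was 1.67 (SE 0.07). Genes named from these lists were picked by small adjusted p in these same libraries, so their values are a description. CD44, the main cell surface receptor of hyaluronan, had 9, 4 and 7 counts in control libraries. It had 12, 0 and 2 in Ako-3 and 34, 30 and 47 in Mko-3 libraries. In Mko-3 against control cells it was called, higher by a log2 fold change of 2.49 (SE 0.39). Against Ako-3 cells it was also called by edgeR, at 3.03 (SE 0.55), but not by DESeq2 (adjusted p = 0.059). That value rests on the few Ako-3 counts, and it was 5.18 without Ako-3 replicate 1 and 2.39 without Ako-3 replicate 2. VCAN, a hyaluronan-binding proteoglycan, rose by 1.05 (SE 0.29) in Mko-3 cells and had -0.82 (SE 0.39) in Ako-3 cells, where it was not called. Without control replicate 1 the rise of VCAN was 0.92, below the threshold. HAPLN2, a hyaluronan link protein of the nervous system that was named after its values were seen, fell from 31 to 51 counts in control libraries to 7 to 17 in Ako-3 and 2 to 12 in Mko-3 libraries.

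HYAL1, the lysosomal hyaluronidase, rose in Ako-3 cells by a log2 fold change of 1.44 (SE 0.20) and was lower in Mko-3 than in Ako-3 cells by 2.13 (SE 0.22). Of the 18 tested genes that build the chondroitin sulfate linker and chain, CHPF2, a chondroitin polymerizing factor, rose in both knockouts, from 21.999 CPM to 46.9 and 59.7. None of the 18 was called lower, beside 5.0% of all genes in Ako-3 and 7.22% in Mko-3 cells. CSGALNACT1, which starts the chain, was higher in Mko-3 than in Ako-3 cells by 1.05 (SE 0.19), and this was 0.93 without Ako-3 replicate 3 and 0.97 without Mko-3 replicate 3. None of the 5 sulfotransferases tested was called in any comparison. Beside 8.52%, 11.0% and 5.73% of all genes called, 5 genes are too few to read anything from.

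Of the 5 proprotein convertases tested, PCSK4 was called in Mko-3 cells, where it fell from 20.3 to 8.34 CPM. None of the 5 was called in Ako-3 cells, beside 8.52% of all genes. PCSK4 was lower there too, at 13.5 CPM, with a log2 fold change of -0.60 (SE 0.13). Among the other Kunitz-domain genes, TFPI2, a protease inhibitor of the matrix, rose in Mko-3 cells from 9.98 to 23.4 CPM and had 9.89 CPM in Ako-3 cells. The remaining Kunitz-domain genes that were called include collagens, in which the domain is a small part of the chain. COL6A3 had 0, 0 and 4 counts in control, 24, 38 and 25 in Ako-3 and 2, 1 and 0 in Mko-3 libraries. It was called higher in Ako-3 than in control cells and lower in Mko-3 than in Ako-3 cells. No fold is given on so few counts. COL7A1 fell in Mko-3 cells by a log2 fold change of 1.43 (SE 0.32), and had -0.90 (SE 0.28) in Ako-3 cells, where it was not called. WFIKKN1, named after its values were seen, was lower in Mko-3 than in Ako-3 cells by 1.16 (SE 0.30), and by 0.86 without Ako-3 replicate 3.

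**Figure D5:**
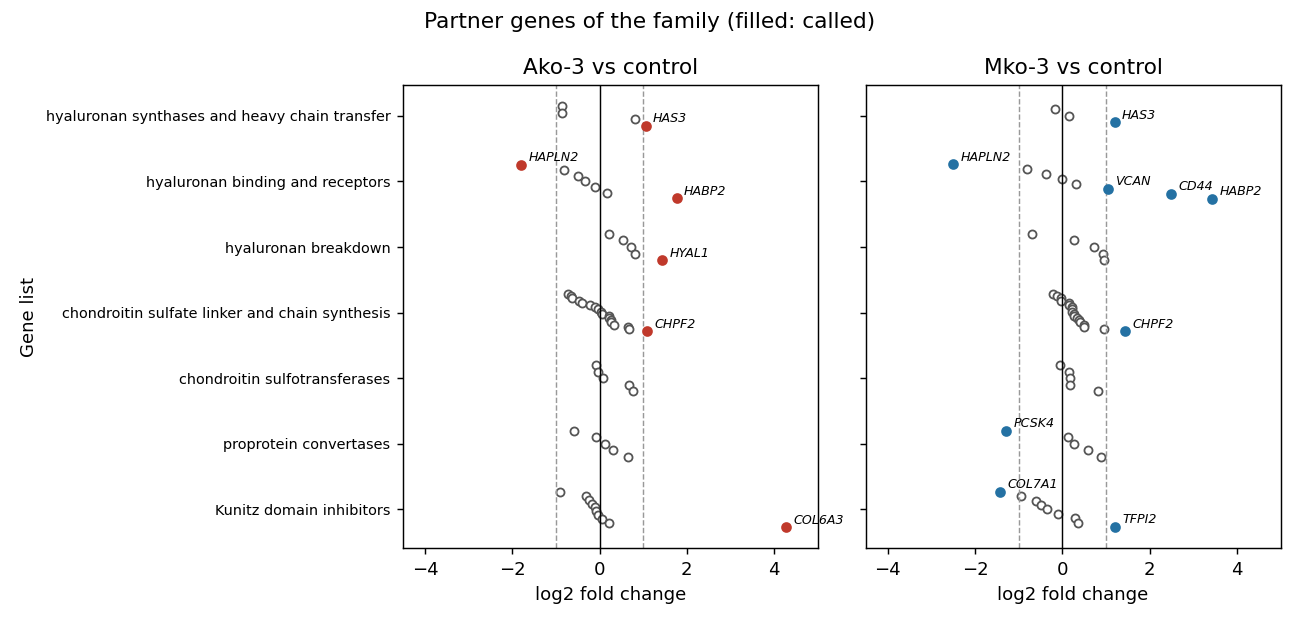
Log2 fold changes of the tested partner genes on 7 lists in Ako-3 (left) and Mko-3 cells (right) against control cells, with filled and named points for called genes, open points for the others and dashed lines at the fold threshold. HABP2 lies at 1.77 and 3.44, most genes lie within the dashed lines, and the fitted value of COL6A3 rests on a control group with 0 to 4 counts.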

How the data were processed

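RNA sequencing of 9 libraries was used, 3 each of Huh-7 control, Ako-3 and Mko-3 cells, grouped by the labels, which give no sequencing batch. To make the raw counts, the authors aligned reads to hg38 with HISAT2 2.0.5 and counted them on genes with featureCounts 1.5.0-p3 (versions also in the submitters' processing notes, which list GRCh37 and hg19 too), and deposited counts without normalization. The deposited FPKM are, from the values, these counts divided by gene length and by DESeq2 size factors over the 9 libraries times a constant, so groups were scaled together.

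Counts were tested here with edgeR 4.0.16 in R 4.3.3 (TMM, filterByExpr with a minimum count of 10, robust quasi-likelihood F test), fitting the 6 libraries of each comparison alone, after a test on simulated data. Calls follow the study's thresholds, a log2 fold change of 1 or more in size with a Benjamini-Hochberg adjusted p of 0.05 or less. The standard error is the log2 fold change divided by the square root of F. CPM were TMM-normalized over the 9 libraries. Total counts were 14638727 to 20179760, so genes with few reads have wide errors.

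The members and gene lists were chosen with earlier results of these data known. Genes named besides the members were, per list, up to 3 with the smallest adjusted p among those called, called neighbours within 500 kb, and the 3 most like each member, 1 of which is not reported here. The neighbours of ITIH2, the cell type markers, HAPLN2 and WFIKKN1 are named besides. Alternatives were DESeq2 1.42.0, RLE size factors, other filters, 1 fit of 9 libraries, a replicate block, leaving out each library, and, added later, adjusted p alone and canonical transcript lengths. Promoter letters were searched with Python 3.11.15.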

Additional observations from a re-analysis of the deposited data

Results flagged for a closer look

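The difference of ITIH2 between the knockouts was marked because the 2 clones differ in the same contrast with control cells. The log2 fold change against control cells was 1.66 in Ako-3 and 0.43 in Mko-3 cells, and the test of Mko-3 against Ako-3 libraries gave -1.23 (SE 0.04), lower in 3 of 3 Mko-3 libraries. No group had more than 3 libraries, so single libraries were not tested for standing apart. The control libraries, which serve both comparisons with a knockout, differed most from each other. The chi-square per degree of freedom between pairs of libraries was 6.38 to 8.13 in control, 2.96 to 3.26 in Ako-3 and 2.34 to 2.70 in Mko-3 cells.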

How the results depend on the processing

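The calls of ITIH1, ITIH2 and ITIH5 in Ako-3 cells, of ITIH1 in Mko-3 cells and of ITIH2 between the knockouts held under DESeq2, RLE size factors, the other filters, 1 fit of 9 libraries, the replicate block and with each library left out. Of the log2 fold changes of single members under these alternatives, 177 kept their direction and their side of the threshold. The others are those of ITIH3 in Mko-3 against control cells, 0.01 in the main test, which was -0.0035 with at least 10 counts in every library, -0.11 without control replicate 3 and -0.066 without Mko-3 replicate 1, in a range of -0.11 to 0.13 over the libraries left out. With adjusted p alone and no fold threshold, chosen after seeing the data, 5, 3 and 4 members and 32, 36 and 35 partner genes were called in Ako-3 against control, Mko-3 against control and Mko-3 against Ako-3 cells, where 49.9%, 54.0% and 41.6% of all genes tested were called. Requiring 10 counts in each library, which tests fewer genes, left 3 partner genes called in Ako-3 against control and 5 in Mko-3 against Ako-3 cells. With canonical transcript lengths the heavy chain ratio was 0.0971 in control, 0.242 in Ako-3 and 0.140 in Mko-3 cells. Libraries with the same replicate number did not deviate together (correlations -0.066 to 0.062), so the numbers do not pair them, and with the replicate block the 21 counts and fold changes of members and partners kept their direction and their side of the threshold, with 3 members called in Ako-3 against control cells. ITIH1, ITIH3 and ITIH4, with 0 to 116 counts per library, rest on few reads. The counts of ITIH4 also depend on how reads shared with the gene that overlaps it were assigned.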

Other observations

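Plasma protease inhibitors outside the family, which like bikunin are secreted by hepatocytes, were called in both directions. Of 19 tested in Ako-3 cells 4 rose and 1 fell, of 19 in Mko-3 cells 2 rose and 3 fell, and of 20 between the knockouts 4 were lower in Mko-3 cells and none was higher. Their median log2 fold changes were 0.48, -0.47 and -0.62 in these comparisons, in which 8.52%, 11.0% and 5.73% of all genes tested were called. A2M, which codes for the broad inhibitor alpha-2-macroglobulin, had 34.0 CPM in control, 99.6 in Ako-3 and 18.1 in Mko-3 cells, and fell by 2.46 on the log2 scale (SE 0.07) from Ako-3 to Mko-3 cells. Against control cells A2M was called in Ako-3 and not in Mko-3 cells. AHSG, which codes for fetuin-A, had 430 CPM in control, 806 in Ako-3 and 222 in Mko-3 cells, and was called between the knockouts only. SERPINF2, the gene of the plasmin inhibitor, had 349, 418 and 164 CPM, and against control cells was called in Mko-3 and not in Ako-3 cells.

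Of the lipocalins, the family of the other AMBP product, 8 were tested in each comparison. Between the knockouts 3 were lower in Mko-3 cells, LCN2 by 1.09, ORM2 by 1.07 and C8G by 1.47 on the log2 scale. The value of LCN2 reached -0.988, short of the threshold, with a library left out. The other 5 had values below 0 as well without being called, beside 3.47% of all genes called lower. Of 15 IL-6 acute phase genes, 6 fell in Mko-3 against control cells and none rose, beside 7.22% of all genes called lower. FGG fell by 1.25, HP by 1.65 and LBP by 1.11. The value of LBP reached -0.952, short of the threshold, with a library left out. In Ako-3 cells HP rose by 1.53 and no other was called. Of 13 liver-enriched transcription factors, CEBPB was called in Mko-3 cells, where it fell from 466 to 192 CPM. None was called in Ako-3 cells. CEBPB was lower there too, at 278 CPM, with a log2 fold change of -0.75 (SE 0.07) that did not reach the threshold.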
